A study of Homo sapiens with 9 samples.

Results

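The genes described here encode the receptors and enzymes of the endocannabinoid system in MDA-MB-231, a human cell line derived from triple-negative breast cancer. They were chosen by name: CNR1 and GPR55 (receptors), DAGLA, DAGLB and NAPEPLD (synthesis), and MGLL, ABHD6, ABHD12 and FAAH (breakdown). These are 9 of the 27615 genes in the longest list deposited. Polyadenylated RNA was sequenced from cells treated with DMSO (vehicle), with Rimonabant, an antagonist of the cannabinoid receptor CB1, or with TXX-1-10, a compound derived from it, and DMSO was the solvent of both compounds. There were 3 libraries for each of the 3 treatments. Dose and duration for the sequenced cells are not given in the sources used here, so it is not known whether both compounds were given alike, and while the study's methods say that in vitro work was repeated, they name no separate cultures for these libraries. P-values therefore measure only the spread between these libraries, which may be technical.

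The endocannabinoids are lipids made on demand from membrane phospholipids. 2-arachidonoylglycerol (2-AG) is made by diacylglycerol lipases and cleaved mainly by monoacylglycerol lipase, with smaller parts for ABHD6 and ABHD12. Anandamide, an N-acylethanolamine, can be released by the phospholipase D encoded by NAPEPLD and is cleaved by fatty acid amide hydrolase (FAAH). Both lipids act on CB1, the product of CNR1 and the main cannabinoid receptor of the brain, while GPR55 is a receptor for lysophosphatidylinositol that also binds some cannabinoids.

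In these cells the enzymes were expressed and the receptors were close to the detection limit. With TXX-1-10, FAAH RNA was 6.01 times, MGLL RNA 1.43 times, DAGLA RNA 1.42 times and ABHD12 RNA 0.743 times the vehicle level. The FAAH value rests on 2 libraries per treatment, with 12 and 32 reads in vehicle. Its log2 fold change was 2.06 or 3.45 when vehicle replicate 1 or 3 was left out. With Rimonabant, FAAH RNA was 2.17 times and MGLL RNA 0.898 times the vehicle level, and both of these calls were lost under some alternatives. DAGLB, ABHD6 and NAPEPLD passed the test in no comparison.

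The promoters of 3 of these genes are shown because FAAH had the largest change, ABHD12 fell, and CNR1 encodes the receptor that Rimonabant blocks. The set of RefSeq promoters used here (GRCh38.p14) spans 250 bases before to 50 after a transcription start. It holds 7 of the 9 genes and has no entry for DAGLA and MGLL. The printed stretches are chr1:46394067-46394366 (plus strand) for FAAH, chr20:25390786-25391085 (minus strand) for ABHD12 and chr6:88166298-88166597 (minus strand) for CNR1, which of 6 starts is the one nearest to the start of the gene in the lists. Capitals mark the GC box GGGCGG and the CCAAT box on either strand (CCGCCC and ATTGG when reversed), which do not overlap each other here.
FAAH: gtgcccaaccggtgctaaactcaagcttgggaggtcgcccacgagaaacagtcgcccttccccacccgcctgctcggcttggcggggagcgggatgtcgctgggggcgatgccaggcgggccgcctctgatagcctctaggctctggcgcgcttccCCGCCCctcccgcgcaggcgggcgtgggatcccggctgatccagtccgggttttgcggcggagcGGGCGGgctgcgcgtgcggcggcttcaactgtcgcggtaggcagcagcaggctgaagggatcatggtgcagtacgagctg
ABHD12: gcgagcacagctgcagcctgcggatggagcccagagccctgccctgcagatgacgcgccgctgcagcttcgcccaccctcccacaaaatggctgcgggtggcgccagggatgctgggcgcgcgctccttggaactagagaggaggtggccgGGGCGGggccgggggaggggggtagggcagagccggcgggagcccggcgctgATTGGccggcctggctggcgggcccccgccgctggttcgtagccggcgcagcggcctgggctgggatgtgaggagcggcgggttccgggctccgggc
CNR1: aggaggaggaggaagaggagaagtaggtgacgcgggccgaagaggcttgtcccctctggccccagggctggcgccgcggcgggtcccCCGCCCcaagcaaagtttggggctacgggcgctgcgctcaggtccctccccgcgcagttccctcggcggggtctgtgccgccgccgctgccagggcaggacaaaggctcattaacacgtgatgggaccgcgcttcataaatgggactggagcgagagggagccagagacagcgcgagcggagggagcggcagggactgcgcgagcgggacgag
FAAH holds 2 GC boxes, ABHD12 a GC box and a CCAAT box, and CNR1 a GC box. Among 35116 promoters of the same length, 45% hold a GC box and 34.6% a CCAAT box, so these matches are common. The GC content was 70.0%, 75.3% and 69.3% in the order shown, against a median of 58.7%.

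The lists of the 9 libraries end at different points of a shared gene order, so a gene with no line in a list is not a gene at 0. MGLL, ABHD12 and CNR1 are listed for all 9 libraries. DAGLA, DAGLB, ABHD6 and NAPEPLD are listed for 8, all but Rimonabant replicate 1. FAAH is listed for 6, without vehicle replicate 2, Rimonabant replicate 1 and TXX-1-10 replicate 1, which leaves 2 libraries per treatment. GPR55 is listed for 4, with 1 vehicle, 1 Rimonabant and 2 TXX-1-10 libraries. The library total behind the deposited values was 17078370 to 19277808. Which reads it holds is not given in the sources used here: the counts listed for vehicle replicate 1 sum to 17492638, above its total of 17078370, and those of vehicle replicate 3 are also above theirs. Rimonabant replicate 1 and TXX-1-10 replicate 3 stood apart: pairs of replicates with either of them had a chi-square per degree of freedom of 24.3 to 42.2 over 4236 genes, against 2.29 to 6.76 for the other pairs. Relative to the mean of the other replicates, counts fell with gene length in both (Spearman rho across genes -0.694 and -0.692), against -0.025 to 0.028 in the vehicle libraries. The other 4 treated libraries, whose reference includes one of these, had rho of 0.477 to 0.667. Gene length correction was one of the alternatives. The line's markers VIM, AXL, CD44 and EGFR lay at 27.4 to 329 FPKM, ESR1 and PGR at no more than 0.0459 FPKM, and markers of leukocytes, endothelium and fibroblasts (PTPRC, PECAM1, DCN) at no more than 23 reads. EPCAM, fixed as a marker low in this line, was at 4.47 to 5.37 FPKM and was not absent.

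Levels were compared between genes as FPKM, which divides the reads of a gene by its length and by the library total. In vehicle-treated cells ABHD12 was highest at 18.7 ± 0.726 FPKM (SD, n = 3), followed by MGLL at 15.7 ± 0.394, DAGLB at 8.07 ± 0.275, ABHD6 at 5.56 ± 0.0815, DAGLA at 3.63 ± 0.158 and NAPEPLD at 2.40 ± 0.197 (n = 3 for each). FAAH followed at 0.461 ± 0.294 FPKM (n = 2), CNR1 at 0.0854 ± 0.0276 (n = 3) and GPR55 at 0.0709 (1 library). The vehicle libraries of neighbours in this order did not overlap except for CNR1 and GPR55. The first and second places depend on gene length: with the longest coding transcript (MGLL 4941 bases, ABHD12 2117) in place of the length in the lists (11849 and 3429), MGLL was at 37.8 FPKM and ABHD12 at 30.2. By that length NAPEPLD (3.64 ± 0.299 FPKM) and DAGLA (3.63 ± 0.158) could not be ordered.

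**Figure D1:**
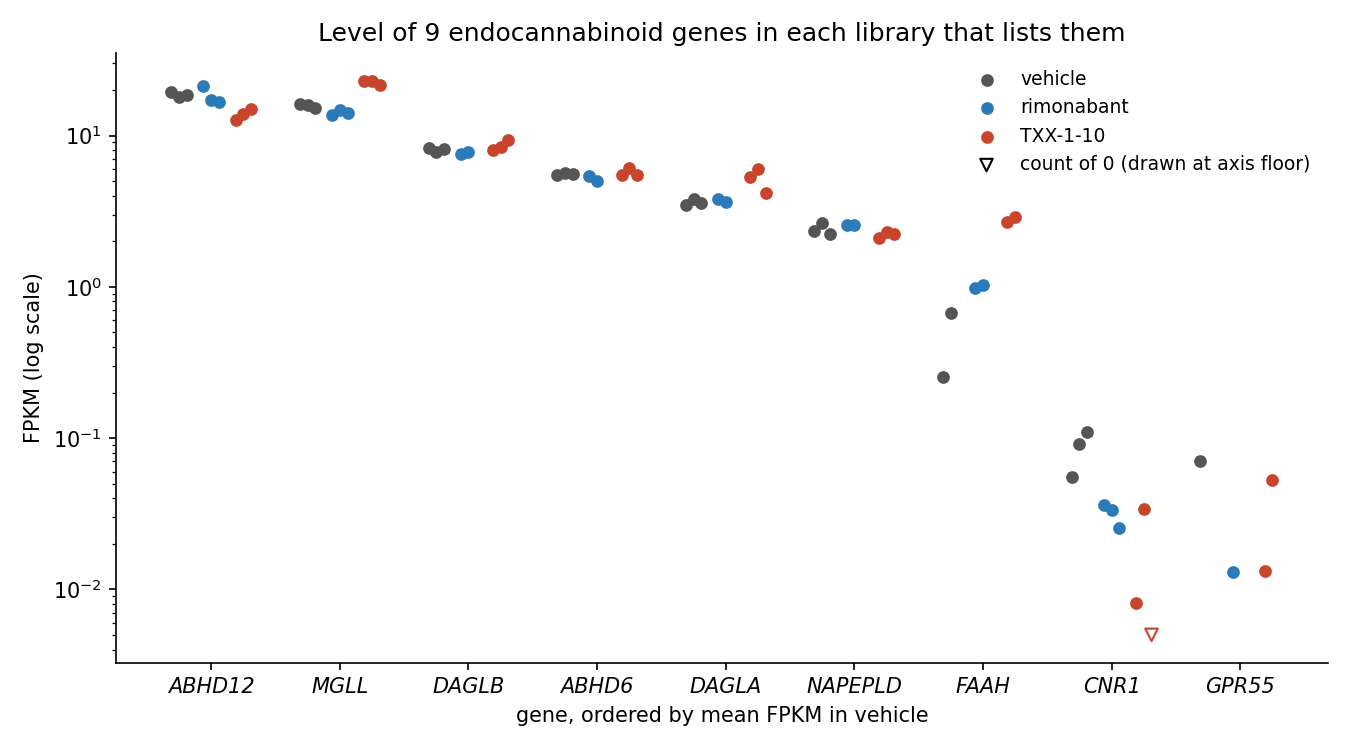
FPKM on a log axis for each of the 9 genes in every library that lists it, with vehicle, Rimonabant and TXX-1-10 side by side and replicates in number order. The 6 enzymes other than FAAH lie between 2.11 and 23.0 FPKM, FAAH climbs from 0.253 to 2.90, and CNR1 and GPR55 stay below 0.11; the open triangle is a count of 0.

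Each gene's counts in all libraries that list it entered edgeR's quasi-likelihood test, with Benjamini-Hochberg adjustment over all genes of that fit. A gene passed at an adjusted p under 0.05, and the word changed is kept for those that also differed by at least 1 in absolute log2 fold change. Of the 9 genes 7 were tested: CNR1 was under the minimum mean count of 10, and GPR55 is listed for too few libraries. The 2 comparisons with vehicle share the vehicle libraries, and all fold changes below are on the log2 scale of the fitted counts. As RNA was measured in bulk, fewer cells with a transcript and less of it per cell cannot be told apart.

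Between TXX-1-10 and vehicle, 4 of the 7 genes passed: FAAH, MGLL and DAGLA were higher and ABHD12 lower. Over all genes the same rule called 74.4% of those fitted on 9 libraries (MGLL, ABHD12), 75.2% on 8 (DAGLA, DAGLB, ABHD6, NAPEPLD) and 61.7% on 6 (FAAH). The share of these genes that passed was thus no higher than the background, and 7 genes are too few to call it lower. FAAH alone was also changed, where the background was 11.8%, 12.7% and 15.8%. The median log2 fold change of the 7 genes was 0.09, against -0.09 to -0.02 over all genes of the 3 fits. Between Rimonabant and vehicle 2 of 7 passed (background 48.9%, 46.5% and 29.9%), FAAH higher and MGLL lower, and FAAH was changed (1.13%, 1.51% and 2.99%). The median was -0.03, against -0.02 to 0.00 over all genes. Between TXX-1-10 and Rimonabant 4 of 7 passed, in the same directions as against vehicle (64.5%, 60.5% and 47%), and FAAH was changed (5.93%, 6.42% and 8.05%). Here the median was 0.15, against -0.08 to -0.01.

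**Figure D2:**
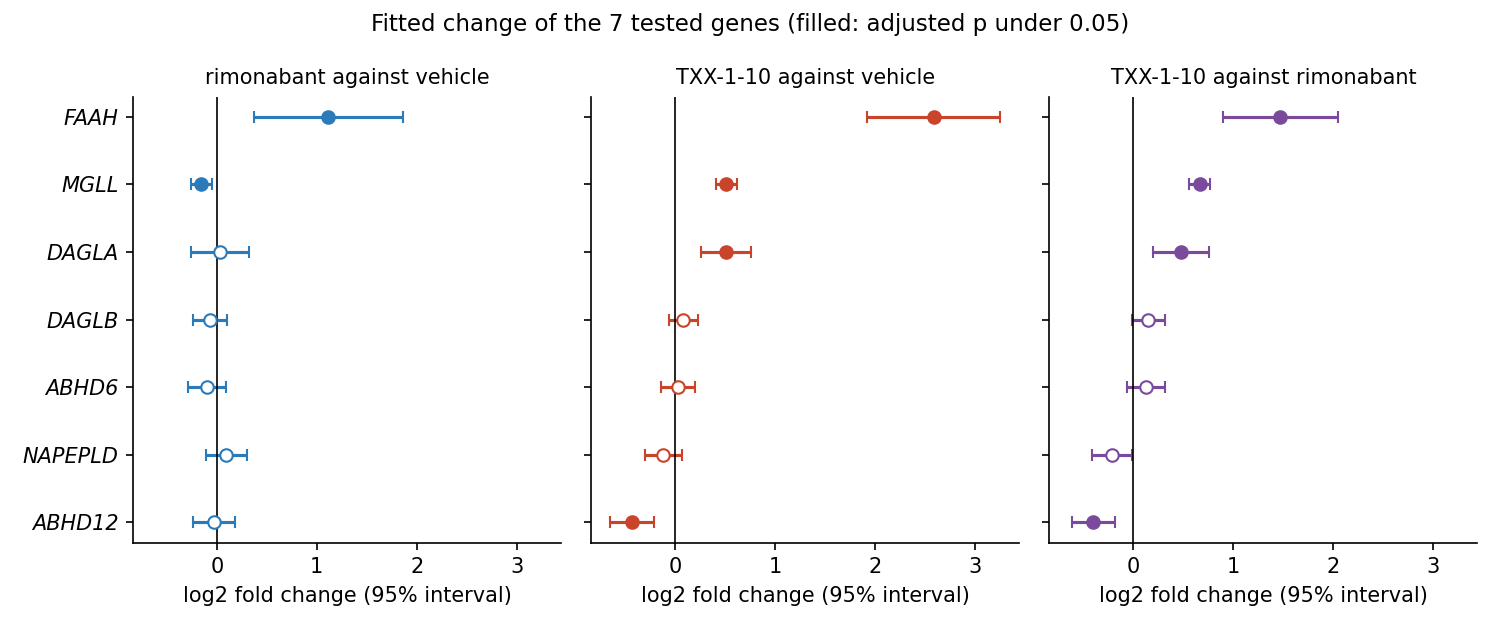
Fitted log2 fold change (horizontal axis) with its 95% interval for the 7 tested genes in the 3 comparisons, each in its own panel. Filled points passed at an adjusted p under 0.05 in edgeR's quasi-likelihood test, and FAAH is the gene farthest from 0 in each panel, at 1.12, 2.59 and 1.47.

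CNR1 (ENSG00000118432, chr6:88139864-88166359, minus strand, GRCh38) had very few reads. Its counts were 6, 10 and 12 in the vehicle libraries, 4, 4 and 3 with Rimonabant and 1, 4 and 0 with TXX-1-10, in the order of replicates 1 to 3. All 3 vehicle libraries were above all those of either compound, and the compounds overlapped. The summed counts were 28 with vehicle, at library totals that sum to 51545340 (exact 95% Poisson interval of the count 18.6 to 40.5), 11 with Rimonabant, at 54817913 (5.49 to 19.7), and 5 with TXX-1-10, at 56077788 (1.62 to 11.7). These intervals cover counting error only. The count of 0 in TXX-1-10 replicate 3 allows up to 3 reads as a one-sided limit, or 0.0256 FPKM, and up to 3.69 by the two-sided Poisson interval. In a fit without the filter on low counts, edgeR's adjusted p was 0.00647 for TXX-1-10 against vehicle, 0.0638 for Rimonabant against vehicle and 0.268 between the compounds. With 3 libraries against 3, an exact permutation test cannot go below 0.1.

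The place of CNR1 in the lists did not match its counts. The gene order shared by the lists follows abundance, with the most counted genes first. CNR1 stands at position 2324, among 100 neighbours with a median mean count of 1828 and none under 1362, while its own mean count of 4.89 ranks 18143. Its log2 difference from the neighbours was -8.28, and it was 1 of 2 genes among the first 9397 more than 4 log2 units below theirs, with 0 as far above. The other 8 endocannabinoid genes lay within 0.33 log2 units of their neighbours, from MGLL at position 931 to GPR55 at position 21774. What set the order is not given in the sources used here.

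**Figure D3:**
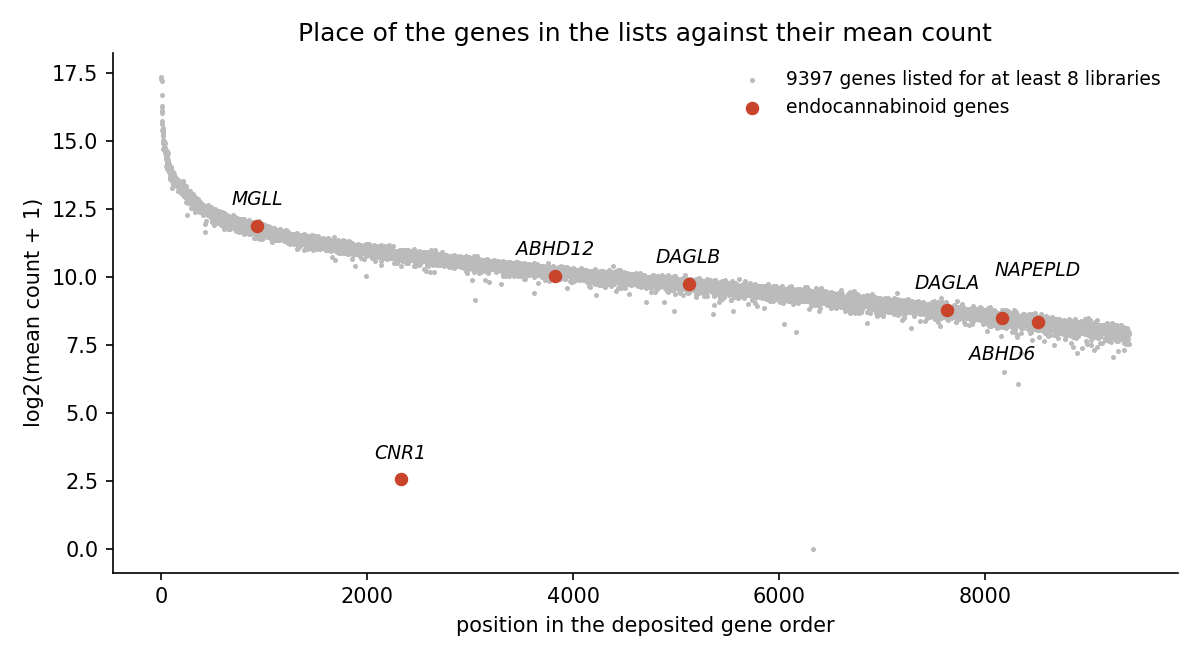
Position in the gene order of the lists (horizontal axis) against log2(mean count + 1) for the 9397 genes listed for at least 8 libraries (grey), with the endocannabinoid genes among them in red. MGLL, ABHD12, DAGLB, DAGLA, ABHD6 and NAPEPLD lie in the band of the other genes and CNR1, at a mean count of 4.89, far below it.

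GPR55 (ENSG00000135898, chr2:230907318-230961066, minus strand) had 5 reads in vehicle replicate 1, 1 read in Rimonabant replicate 3, and 1 and 4 reads in TXX-1-10 replicates 2 and 3. The Poisson intervals of all 4 counts overlap, and no difference was detectable at this depth. Of its exon bases, 600 are shared with an antisense RNA gene (AC012507.1), and without strand information its reads cannot be told apart from that gene's.

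**Figure D4:**
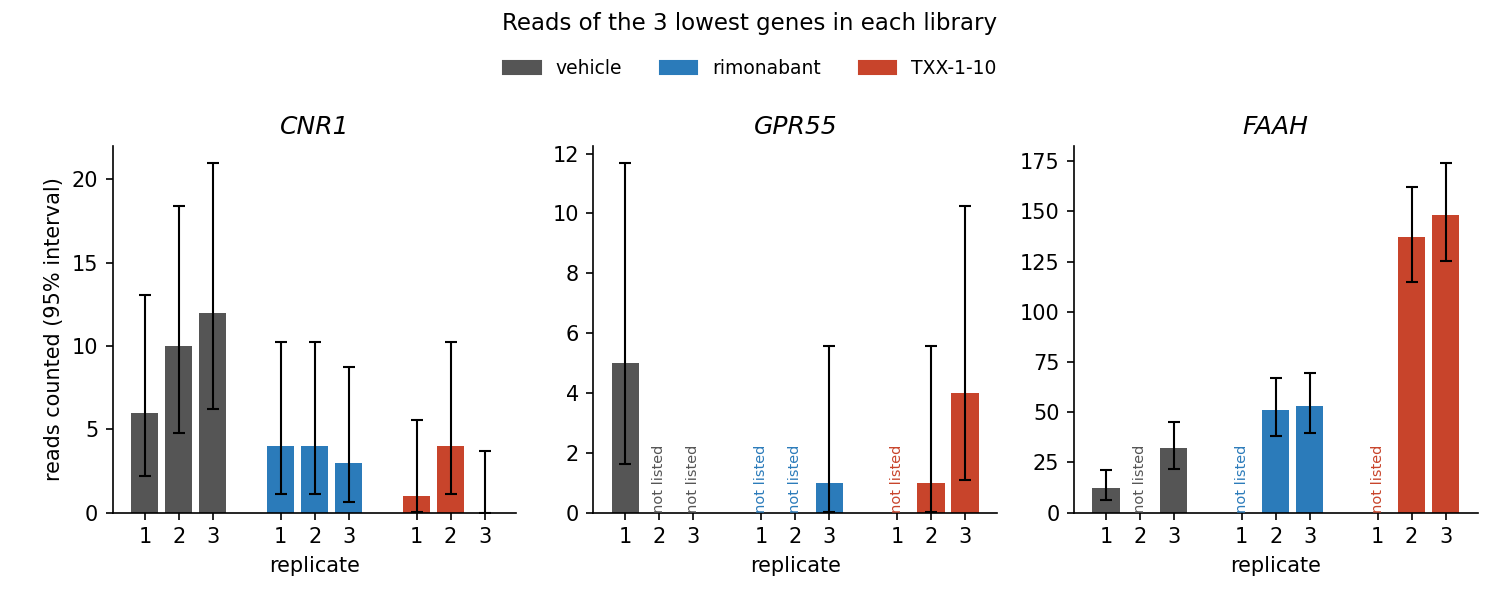
Reads counted on CNR1, GPR55 and FAAH in each library, with exact 95% Poisson intervals; the vertical scales differ and libraries whose list ends before the gene are marked as not listed. CNR1 bars are highest in vehicle (6 to 12 reads), GPR55 has at most 5 reads, and FAAH bars are 12 and 32 in vehicle, 51 and 53 with Rimonabant and 137 and 148 with TXX-1-10.

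DAGLA (ENSG00000134780, chr11:61680433-61747001, plus strand), one of the pair of diacylglycerol lipases that make 2-AG, rose with TXX-1-10. Its FPKM was 3.50, 3.81 and 3.59 in vehicle replicates 1 to 3, 3.79 and 3.64 in Rimonabant replicates 2 and 3, and 5.33, 6.01 and 4.16 in TXX-1-10 replicates 1 to 3. All TXX-1-10 libraries were above all others, replicate 3 by the least. The log2 fold change was 0.51 (95% interval 0.26 to 0.76, adjusted p = 0.00152, edgeR, 8 libraries) against vehicle and 0.48 (0.20 to 0.76, adjusted p = 0.00658) against Rimonabant. The second value lost its call without Rimonabant replicate 3 (0.45, adjusted p = 0.0531). Without Rimonabant replicate 1, which does not list the gene, and TXX-1-10 replicate 3, the first was 0.64 and the second 0.61. Between Rimonabant and vehicle the difference was 0.03 (-0.26 to 0.32, adjusted p = 0.863). An antisense RNA gene with a mean of 4.75 reads shares 509 of its exon bases.

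DAGLB (ENSG00000164535, chr7:6409126-6484190, minus strand), the other diacylglycerol lipase, was at 7.76 to 8.26 FPKM in vehicle, 7.57 and 7.84 with Rimonabant and 7.97 to 9.38 with TXX-1-10, and vehicle and TXX-1-10 overlapped. Its log2 fold change was 0.09 (-0.06 to 0.24, adjusted p = 0.274, edgeR) with TXX-1-10 and -0.07 (-0.24 to 0.10, adjusted p = 0.498) with Rimonabant. Between the compounds it was 0.15 (-0.01 to 0.32, adjusted p = 0.104), which passed under 6 of 22 alternatives (adjusted p 0.0179 to 0.333 over all of them). KDELR2, which lies on the same strand with a mean of 3607 reads, shares 376 bases or 6.53% of its exons, so some reads could belong to either gene. DAGLA made up 29.8%, 32.9% and 30.5% of the summed FPKM of both lipases in vehicle, 33.3% and 31.7% with Rimonabant and 40.1%, 41.8% and 30.7% with TXX-1-10. TXX-1-10 replicate 3 was thus within the vehicle range.

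NAPEPLD (ENSG00000161048, chr7:103099776-103149560, minus strand), the phospholipase D of anandamide synthesis, was at 2.25 to 2.62 FPKM in vehicle, 2.57 and 2.56 with Rimonabant and 2.11 to 2.31 with TXX-1-10. Its log2 fold change was -0.11 (-0.30 to 0.07, adjusted p = 0.236, edgeR) with TXX-1-10 and 0.09 (-0.11 to 0.30, adjusted p = 0.430) with Rimonabant. Both TXX-1-10 and Rimonabant overlapped vehicle, and TXX-1-10 lay below Rimonabant by 0.21 (interval of the log2 fold change -0.41 to -0.01, adjusted p = 0.0703).

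MGLL (ENSG00000074416, chr3:127689062-128052190, minus strand) encodes monoacylglycerol lipase, the main 2-AG hydrolase. Its FPKM was 16.1, 15.9 and 15.3 in vehicle, 13.7, 14.7 and 14.02 with Rimonabant and 23.0, 22.9 and 21.5 with TXX-1-10. No treatment overlapped another, and TXX-1-10 was highest. The log2 fold change was 0.51 (0.41 to 0.62, adjusted p = 3.77e-06, edgeR, 9 libraries) against vehicle and 0.67 (0.56 to 0.77, adjusted p = 1.001e-06) against Rimonabant. Both passed under all 23 alternatives, though some of these, such as the unadjusted p, could not lose a call. The values were 0.54 and 0.68 without the libraries that stood apart. With Rimonabant it was -0.15 (-0.26 to -0.05, adjusted p = 0.0211), and 7 of 23 alternatives lost this call. Among these, leaving out vehicle replicate 1 or 2 or Rimonabant replicate 1 or 3 gave adjusted p of 0.0552 to 0.0733, and a correction for gene length gave -0.07 (adjusted p = 0.183). Among the genes fitted with it, 574 of 4236 had a higher log2 fold change with TXX-1-10 against vehicle.

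ABHD12 (ENSG00000100997, chr20:25294743-25390983, minus strand), a serine hydrolase that also cleaves lysophosphatidylserine, went the other way. Its FPKM was 19.5, 18.1 and 18.4 in vehicle, 21.2, 17.2 and 16.5 with Rimonabant and 12.7, 13.95 and 14.97 with TXX-1-10. All TXX-1-10 libraries were below all others, and Rimonabant spanned the vehicle range, with replicate 1 the highest of the 9. The log2 fold change was -0.43 (-0.64 to -0.21, adjusted p = 0.00237, edgeR) against vehicle and -0.40 (-0.61 to -0.18, adjusted p = 0.00449) against Rimonabant, and -0.49 and -0.34 without Rimonabant replicate 1 and TXX-1-10 replicate 3. With Rimonabant it was -0.03 (-0.24 to 0.18, adjusted p = 0.825), and -0.15 (adjusted p = 0.0296) when both of those libraries were left out.

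ABHD6 (ENSG00000163686, chr3:58237506-58295693, plus strand), a membrane hydrolase that cleaves 2-AG near its site of synthesis, was at 5.47 to 5.62 FPKM in vehicle, 5.38 and 4.99 with Rimonabant and 5.45 to 6.06 with TXX-1-10. Its log2 fold change was 0.03 (-0.14 to 0.20, adjusted p = 0.763, edgeR) with TXX-1-10, -0.10 (-0.29 to 0.09, adjusted p = 0.371) with Rimonabant and 0.13 (-0.06 to 0.32, adjusted p = 0.226) between the compounds. The first had the opposite sign, -0.02, without TXX-1-10 replicate 2. The make-up of the 2-AG hydrolases differed with TXX-1-10. MGLL held 39.2%, 40.1% and 38.9% of the summed FPKM of MGLL, ABHD12 and ABHD6 in vehicle, 39.4% in both Rimonabant libraries that list all 3 genes, and 55.9%, 53.4% and 51.3% with TXX-1-10. All TXX-1-10 libraries were above the other 5. These shares use the gene lengths in the lists.

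**Figure D5:**
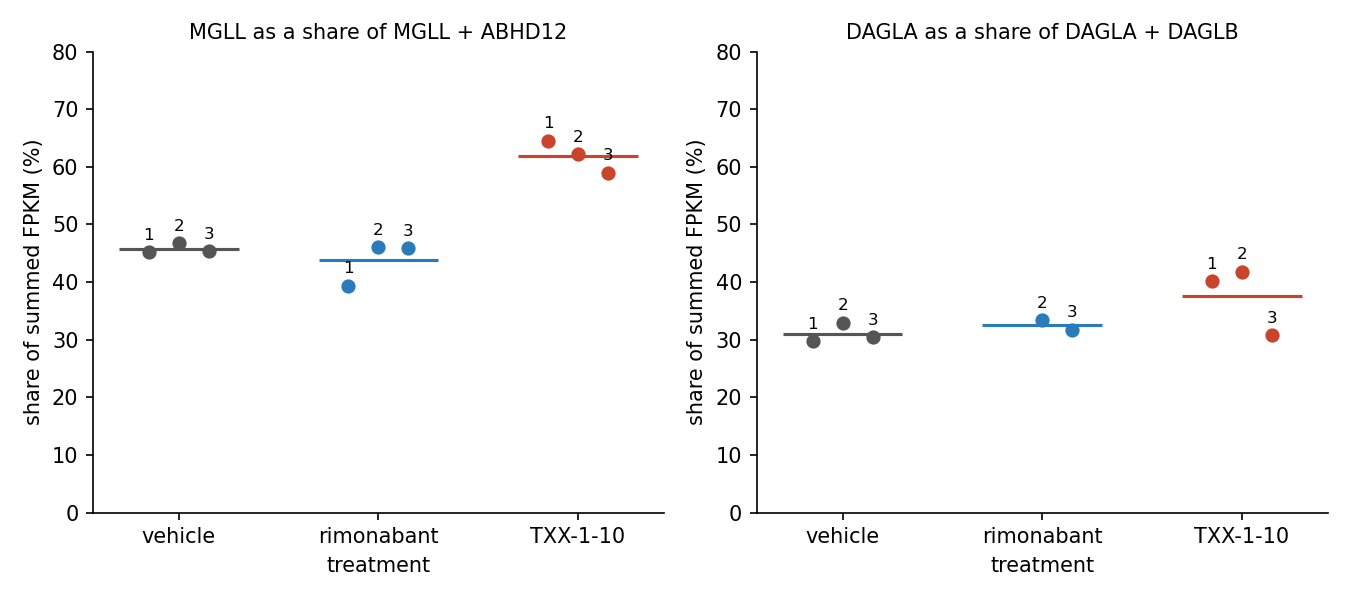
Share (%) of MGLL in the summed FPKM of MGLL and ABHD12 (left) and of DAGLA in that of DAGLA and DAGLB (right), per library, with replicate numbers and horizontal lines for treatment means. The MGLL share was 59.0% to 64.5% with TXX-1-10 and 39.4% to 46.7% in the other libraries, while the DAGLA share of TXX-1-10 replicate 3 (30.7%) lies among the vehicle libraries.

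FAAH (ENSG00000117480, chr1:46394265-46413848, plus strand), whose promoter is printed above, encodes the amidase that cleaves anandamide and other fatty acid amides. Its counts were 12 and 32 in vehicle replicates 1 and 3 (0.253 and 0.669 FPKM), 51 and 53 in Rimonabant replicates 2 and 3 (0.977 and 1.03 FPKM) and 137 and 148 in TXX-1-10 replicates 2 and 3 (2.68 and 2.90 FPKM). The treatments did not overlap, but the vehicle libraries differed from each other beyond counting error (exact 95% Poisson intervals 6.20 to 21.0 and 21.9 to 45.2). With TXX-1-10 the log2 fold change was 2.59 (1.92 to 3.25, adjusted p = 1.13e-05, edgeR, 6 libraries) against vehicle and 1.47 (0.89 to 2.05, adjusted p = 0.000674) against Rimonabant. Of the 12893 genes in that fit, 76 and 140 had a higher change. Both values passed under all 20 alternatives, the first at 1.39 to 3.45 and the second at 0.92 to 1.53. Some of these, such as the unadjusted p, could not lose a call. The lowest value against vehicle, 1.39, is on the log2(FPKM + 1) scale, which understates the change of low genes. The first was 2.06 without vehicle replicate 1 and 3.45 without vehicle replicate 3, and the values were 2.53 and 1.42 without TXX-1-10 replicate 3. In these fits the lone library of a treatment is assumed to vary like the others.

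With Rimonabant the log2 fold change of FAAH was 1.12 (0.37 to 1.86, adjusted p = 0.0278). It was 0.58 without vehicle replicate 1, where the call was lost, and 1.98 without vehicle replicate 3. It also lost its call without Rimonabant replicate 2 or 3 (1.15 and 1.08), which leaves 1 Rimonabant library. With a replicate block it was 0.63 and the call was lost. Vehicle replicate 1 is the only replicate 1 library that lists FAAH, so the block sets it aside and is no separate check. FAAHP1, a pseudogene elsewhere in the genome that could share reads with FAAH, had 12 reads in vehicle replicate 1, 18 in Rimonabant replicate 3, and 3 and 13 in TXX-1-10 replicates 2 and 3, so its highest count was with Rimonabant. The genes whose pattern over the 6 libraries was most like that of FAAH, by the root mean square difference of centred log2(FPKM + 1), were ZNF836, a zinc finger gene (0.0697), AC087741.1 (0.0874) and GRN, which encodes progranulin (0.101). GRN was at 102 ± 5.67 FPKM in vehicle, 165 ± 15.9 with Rimonabant and 265 ± 17.9 with TXX-1-10 (SD, n = 3 each). The log2(FPKM + 1) scale understates the change of low genes such as FAAH, so likeness on it is not an equal fold change. Against vehicle, the fitted log2 fold change with TXX-1-10 was 2.30 for ZNF836, 1.80 for AC087741.1 and 1.38 for GRN, beside 2.59 for FAAH.

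A further 44 genes of the pathway were taken from a list of receptors, receptor partners, synthesis and breakdown enzymes and lipid-binding proteins, and 30 of them could be tested. With TXX-1-10 against vehicle 12 were higher, 10 lower and 8 did not pass, where 61.7% to 75.2% of all genes passed in either direction in the fits on 9, 8 and 6 libraries. With Rimonabant against vehicle 11 were higher, 5 lower and 14 did not pass (all genes 29.9% to 48.9%). Between the compounds 11 were higher with TXX-1-10, 10 lower and 9 did not pass (47% to 64.5%). The counts of passing genes with TXX-1-10 are thus near the background. With TXX-1-10 against vehicle 7 of the 30 were changed upward and 3 downward (all genes 11.8% to 15.8%). With Rimonabant against vehicle 2 were changed upward and 0 downward (all genes 1.13% to 2.99%). Between the compounds 3 were changed upward and 0 downward (5.93% to 8.05%). The pathway list was chosen with earlier results of these data known, so its shares, here and by role below, do not test the pathway against all genes. GPRASP2, GDPD1, PLAAT1 and ALOX12 were fitted on 7 libraries, for which no share of all genes is given. The median log2 fold change of the 30 was 0.19, 0.02 and 0.04 in this order, beside the medians of all genes given above. The genes named next are the 10 with the largest change among the 11 that were changed in any comparison, and their adjusted p is from edgeR.

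Among other N-acylethanolamine synthesis enzymes, 7 were tested, and with TXX-1-10 6 were higher, 0 lower and 1 did not pass, beside the 61.7% to 75.2% of all genes that passed in either direction. The median was 1.02. ABHD4, a lipase that acts on N-acyl phospholipids and opens a route around NAPEPLD, rose from 4.76 ± 0.371 FPKM in vehicle (SD, n = 3) to 17.8 ± 0.785 with TXX-1-10 (n = 3) and was at 9.90 ± 0.237 with Rimonabant (n = 2). Its log2 fold change was 1.90 (adjusted p = 2.19e-10) and 1.06 (adjusted p = 1.81e-06). The phosphodiesterase genes GDPD1 and GDPD3 rose by 1.11 (adjusted p = 0.000296) and 1.33 (adjusted p = 0.000260) on the log2 scale with TXX-1-10. GDPD1 was also higher with Rimonabant (0.95, adjusted p = 0.00474), and GDPD3 did not pass there (0.40, adjusted p = 0.240). PLAAT4, of the phospholipase and acyltransferase family, had 13 and 14 reads in vehicle, 9 and 10 with Rimonabant and 29 and 30 with TXX-1-10, with a log2 fold change of 1.02 (adjusted p = 0.0193) against vehicle and 1.64 (adjusted p = 0.00262) against Rimonabant. With Rimonabant 4 of the 7 were higher, 0 lower and 3 did not pass, beside 29.9% to 48.9% of all genes.

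Of the other breakdown and oxidation enzymes, 3 were tested. PTGS2, the cyclooxygenase COX-2 that makes prostaglandins from arachidonic acid and can also oxidise 2-AG and anandamide, had the largest change of the 30 genes tested. It was at 0.604 ± 0.0308 FPKM in vehicle (SD, n = 3), 1.21 ± 0.00122 with Rimonabant (n = 2) and 13.8 ± 0.442 with TXX-1-10 (n = 3). The log2 fold change was 4.51 (adjusted p = 6.19e-12) with TXX-1-10 and 1.001 (adjusted p = 4.32e-05) with Rimonabant. NAAA, a lysosomal acid amidase that cleaves N-acylethanolamines, went opposite to FAAH: its level was 4.39 ± 0.108 FPKM in vehicle (n = 3), 3.64 ± 0.0396 with Rimonabant (n = 2) and 2.0005 ± 0.126 with TXX-1-10 (n = 3). Its log2 fold change was -1.14 (adjusted p = 9.96e-08) with TXX-1-10 and -0.27 (adjusted p = 0.0238) with Rimonabant.

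Among the receptors 5 of 8 were tested, and with TXX-1-10 4 were higher and 1 did not pass, close to the 61.7% to 75.2% of all genes that passed. PPARA, a nuclear receptor for N-acylethanolamines, rose by 1.12 (adjusted p = 1.27e-07) with TXX-1-10 and by 0.49 (adjusted p = 0.00152) with Rimonabant on the log2 scale. CNR2, the gene of the other cannabinoid receptor, CB2, had at most 4 reads in the 2 lists that hold it and was not tested. Of 10 tested receptor partners, 1 was higher, 6 were lower and 3 did not pass with TXX-1-10, a share within that background. GNA13, a G protein subunit that couples to GPR55, rose by 1.09 (adjusted p = 2.79e-08), and GNAO1, a subunit that couples to CB1 in neurons, had a log2 fold change of -1.04 (adjusted p = 0.0114) at 15 to 37 reads per library. FABP5, a fatty acid binding protein that carries anandamide in the cytosol, was at 34.4 ± 1.26 FPKM in vehicle (n = 3), 24.9 ± 1.04 with Rimonabant (n = 2) and 16.7 ± 1.62 with TXX-1-10 (n = 3), with log2 fold changes of -1.05 (adjusted p = 5.44e-08) and -0.47 (adjusted p = 0.000534). PBXIP1, the gene the study followed, was at 8.45 ± 0.413 FPKM with vehicle (n = 3), 11.9 ± 0.283 with Rimonabant (n = 2) and 15.5 ± 0.856 with TXX-1-10 (n = 3).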

How the data were processed

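RNA-seq of MDA-MB-231 cells (3 libraries per treatment) was analysed. Per the study's methods, oligo(dT)-selected RNA was made into NEBNext Ultra libraries. The submitters' processing notes name HISAT2 2.0.5 and featureCounts 1.5.0-p3. The authors deposited, per library and gene, a whole-number count without normalization. The authors also deposited an FPKM value, the count divided by gene length and a library total, which was recovered from them and used as library size although listed counts exceed it in some libraries. Of 27615 genes, 27612 have the coordinates of GENCODE 29 (GRCh38). The authors' strand setting is not given in the sources used here.

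Each list ends partway through a line, so genes were fitted in nested sets on 9, 8, 7 and 6 libraries (4236, 9395, 11733 and 12893 genes with a mean count of at least 10) with edgeR 4.0.16 in R 4.3.3, which was tested on simulated data. All 3 treatments shared 1 fit. Standard errors and 95% intervals were derived from the F statistic and are approximate. The common biological coefficient of variation was 0.0605 to 0.0745. DESeq2 1.42.0, limma 3.58.1 on log2(FPKM + 1) and log2(FPKM + 0.1), other library sizes and filters, a gene length correction (lowess span 0.3), a replicate block and left-out libraries were alternatives. Tables were made with pandas 2.3.3 and scipy 1.17.1, and plots with matplotlib 3.10.9, under Python 3.11.15 and numpy 2.4.6.

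The genes, the pathway list and the tests were chosen with earlier results of these data known. Named are the 9 genes, the 10 largest changes among 44 pathway genes, the 3 genes most like each changed member, and PBXIP1. Genes sharing exons or reads with a named gene and the markers are named beside it.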

Additional observations from a re-analysis of the deposited data

How the results depend on the processing

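With TXX-1-10 against vehicle 4 genes passed under the reported settings and 4 to 5 under the alternatives (4 without any 1 library). The count was 4 against Rimonabant too, with 3 to 5 under the alternatives (3 to 4 without 1 library). With Rimonabant against vehicle it was 2, and 1 with the sum of fitted counts as library size, 1 with the gene length correction, 1 with the replicate block, 0 with both of these, and 0 to 2 without 1 library. It rose to 3, with ABHD12, without both Rimonabant replicate 1 and TXX-1-10 replicate 3. It was 0 without vehicle replicate 1 or Rimonabant replicate 3, and 1 without vehicle replicate 2 or Rimonabant replicate 1 or 2. The cause was not tested. Over the 21 single values, 433 of 462 alternatives kept direction and call, 13 lost the call, 9 gained it and 7 changed sign. Not all of these could move a value: the unadjusted p cannot lose a call. Leaving out a Rimonabant library left MGLL with TXX-1-10 against vehicle at 0.514. The sign changes were of small values that did not pass: NAPEPLD with TXX-1-10 (0.0234), ABHD12 (0.0404) and DAGLB (0.00711) with Rimonabant under the sum of fitted counts, ABHD6 with TXX-1-10 without TXX-1-10 replicate 2 (-0.0243; -0.0243 to 0.0530 without any 1 library), and ABHD12 with Rimonabant without vehicle replicate 1 or Rimonabant replicate 2 or 3 (0.00271, 0.0132 and 0.0385; -0.146 to 0.0385 without any 1 library). That library size moved the log2 fold changes of the 7 genes by 0.13 to 0.17 for TXX-1-10 against vehicle, and TMM factors by 0.03 to 0.10.

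MGLL over ABHD12 in vehicle was 0.844 by the gene length in the lists and 1.25 by the longest coding transcript, an alternative chosen after seeing the data. Whether the replicate numbers pair the samples could not be settled, though no sign of pairing with vehicle was seen. This was read from the deviation of each library, gene by gene, from the log2 mean of its own treatment. Pearson correlations of these deviations over 4236 genes were computed for same-numbered libraries. They were -0.06, 0.01 and -0.07 for vehicle and TXX-1-10, and -0.05, 0.04 and 0.04 for vehicle and Rimonabant. For Rimonabant and TXX-1-10 they were -0.79, 0.83 and -0.61. These treatments hold Rimonabant replicate 1 and TXX-1-10 replicate 3, which stood apart from their replicates and weigh on every deviation, so these values cannot decide on pairing. With the replicate block the counts of passing genes were 4, 1 and 4 in the order TXX-1-10 against vehicle, Rimonabant against vehicle and TXX-1-10 against Rimonabant. For FAAH this block sets aside vehicle replicate 1, the only replicate 1 library that lists it. Depth limits CNR1 and GPR55, with at most 12 and 5 reads in a library.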
